A study of Mus musculus with 18 samples.

Results

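Expression of 10 genes of the lipid droplet surface and of its breakdown was followed in the livers of mice treated with vehicle or GDF15 or pair-fed to the GDF15 group. The genes were taken by name from the 16245 genes of the count table, and all 10 were present: the coat proteins Plin2, Plin3, Plin5 and Cideb, the lipase Pnpla2 with its partners Abhd5, G0s2 and Hilpda, and the droplet assembly proteins Fitm1 and Fitm2.

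All 18 mice were wild-type (WT) animals, given as C57BL/6 in the labels and as C57BL/6J males in the study's methods, and were fed a NASH diet, a western-type diet rich in fat and fructose that leads to fatty liver with inflammation and scarring. They were housed near thermoneutrality, at about 29 °C, from 8 weeks of age. Vehicle-treated mice (n = 6) were compared with mice given recombinant GDF15, a stress-induced cytokine that lowers food intake, by daily subcutaneous injection (n = 6), and with pair-fed mice (n = 6), whose daily ration was set to the previous day's intake of the treated mice. The mice were single-housed. The dose that each of these mice received and the age at sampling are not given in the labels. Unless stated otherwise, values are normalized counts (estimated read counts divided by a size factor for each library), ± is the SD over 6 mice (the SE for a log2 fold change), and a gene was called when its adjusted p in DESeq2 was under 0.05.

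Triglyceride is stored in hepatocytes in droplets that bud from the endoplasmic reticulum, a step to which the FIT proteins contribute, and that are coated by perilipins. Pnpla2 (also called ATGL) is the lipase that makes the first cut of stored triglyceride. Abhd5 (CGI-58) activates it, while G0s2 and Hilpda bind and inhibit it. In fatty liver, Plin2 is the dominant coat protein of hepatocyte droplets and its level follows the amount of stored fat, and several of these genes respond to PPARα, a nuclear receptor that senses fatty acids, or to low oxygen.

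The coat protein genes Plin2 and Plin5, whose ratio differed with GDF15, are shown first by the sequence upstream of their transcription start. Both stretches are from RefSeq on GRCm38.p6 and both genes lie on the minus strand. The Plin2 stretch is chr4:86670058-86670309 and ends 1 base after the position where RefSeq transcripts begin. The Plin5 stretch is chr17:56117597-56117798 and ends at the base before the first annotated exon. Capitals mark 2 motifs that were searched for on both strands, the CCAAT box (CCAAT, or ATTGG on the other strand) and ACGTG, the core of the hypoxia response element.
Plin2: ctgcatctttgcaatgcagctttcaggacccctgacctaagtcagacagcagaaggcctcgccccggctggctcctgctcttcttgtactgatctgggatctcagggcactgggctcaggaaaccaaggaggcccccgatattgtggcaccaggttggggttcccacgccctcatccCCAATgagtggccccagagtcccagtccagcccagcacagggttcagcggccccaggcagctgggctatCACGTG
Plin5: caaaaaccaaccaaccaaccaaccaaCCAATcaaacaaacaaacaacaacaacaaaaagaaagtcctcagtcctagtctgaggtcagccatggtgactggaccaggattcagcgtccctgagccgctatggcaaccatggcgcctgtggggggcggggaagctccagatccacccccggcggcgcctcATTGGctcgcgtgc
The last 6 capitals of Plin2 form the E-box CACGTG, in which ACGTG is read on both strands. Among all 32851 RefSeq windows of the same kind, from 250 bases before to 50 bases after a start, 7.15% held CACGTG, 19.6% held ACGTG and 37.4% held CCAAT. Of the 10 genes, which had 12 windows, 2 held ACGTG (Plin2 and Hilpda) and 3 held CCAAT (Plin2, Plin3 and Plin5). A direct repeat of AGGNCA with 1 base between the copies, a strict form of the PPAR response element that 0.381% of windows held, was in none of the 12 on either strand. TATAAA, held by 13.6% of windows, was found in that of Cideb. A match describes the letters of these windows and is not evidence of binding.

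The libraries held 16508864 to 35301853 counts. In the GDF15 group replicates 1 to 3 held 21050932 to 25001486 counts and replicates 4 to 6 held 16508864 to 19108435, whereas in the pair-fed group replicates 1 to 3 held 17180057 to 17926397 and replicates 4 to 6 held 25047723 to 35301853. These ranges did not overlap in either group, but they did in the vehicle group (18059478 to 20472562 and 18411506 to 23215915). The labels name no batch, so calls that were not made in both replicates 1 to 3 and replicates 4 to 6 are given for each set, with 3 mice a group. The hepatocyte markers were abundant in all libraries, with a summed level of 72393 to 110042 CPM (counts scaled to a common library total) over 9 genes. The adipocyte genes Adipoq and Retn and the muscle genes Acta1, Myh1, Ckm, Tnnt3 and Myh7 were at or under 3 counts in all 18 libraries, and the summed level of 6 adipocyte markers was 8.86 to 15.39 CPM. Of these, 2 were abundant enough for an adjusted p against vehicle, Aqp7 (5 to 91 counts per library) and Adrb3 (119 to 417). Aqp7 was lower (log2 fold change −2.51, DESeq2 adjusted p = 3.01e-09) and Adrb3 higher (0.55, adjusted p = 0.00263). Of 6 muscle markers 1 was abundant enough, and it was not called. The lowest count of a member in any library was 27 for Hilpda, and 466 (Fitm1) for the other 9 genes.

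To compare the members with each other, mean normalized counts were divided by the length of the longest coding transcript. In vehicle-treated mice Plin2 stood highest, at 13641 ± 1595 counts per kilobase, followed by Cideb at 5339 ± 377, G0s2 at 2987 ± 807 and Fitm1 at 1151 ± 142. Pnpla2 (713 ± 93.9), Plin3 (681 ± 62.3) and Plin5 (581 ± 82.7) followed, and the ranges of these 3 neighbours over the mice overlapped, which those of no other neighbours did. Fitm2 (396 ± 37.8), Abhd5 (256 ± 15.55) and Hilpda (73.1 ± 15.62) were lowest. With GDF15 the order of the first 2 was kept, but Plin2 was at 7913 ± 1112 and Cideb at 5537 ± 319 counts per kilobase.

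**Figure D1:**
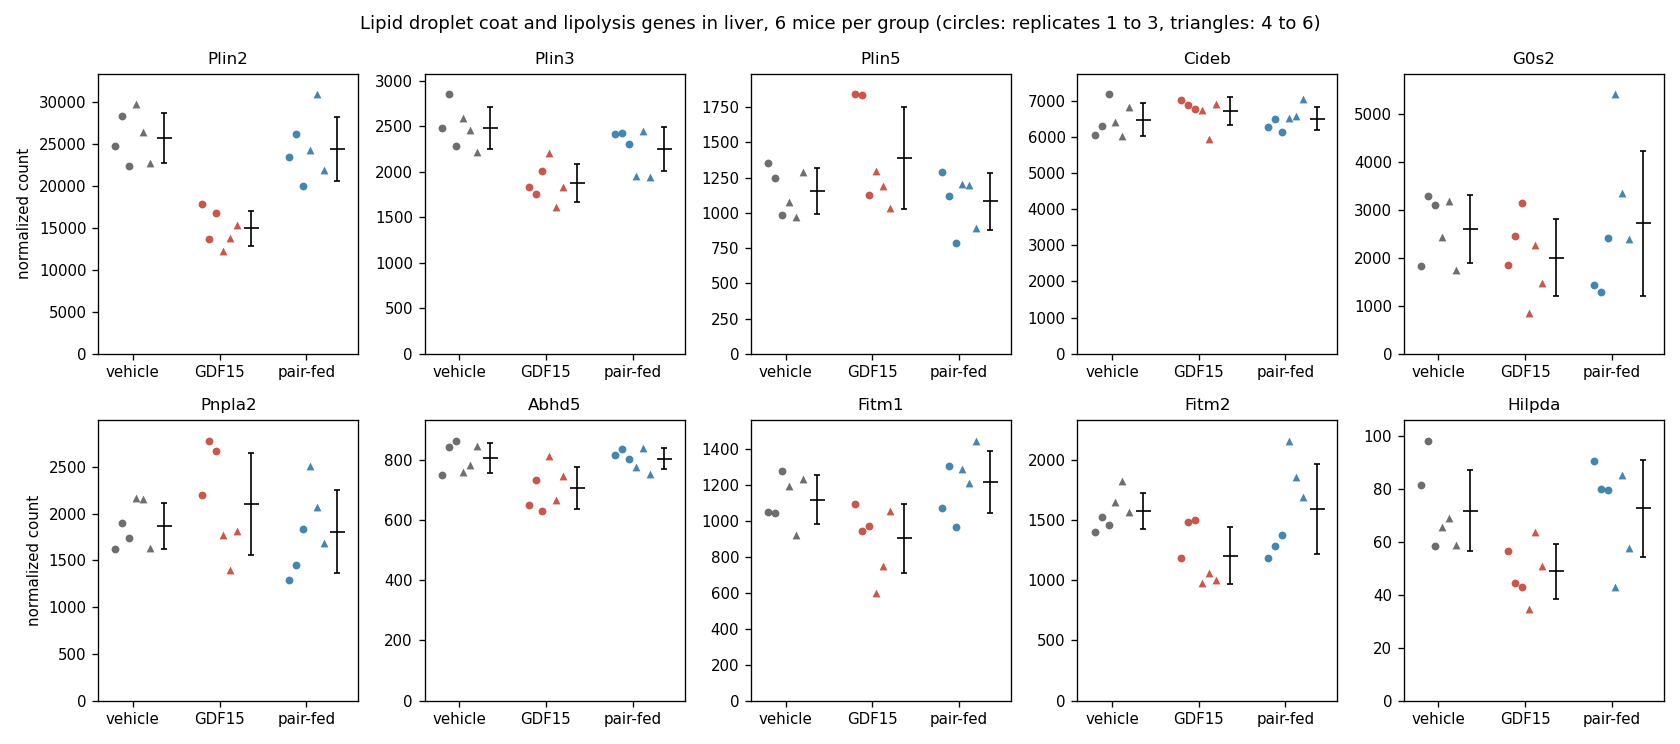
Normalized counts of the 10 genes in each of 18 livers, by group, with the mean and SD (black) beside the points and each axis starting at 0. Circles are replicates 1 to 3 and triangles replicates 4 to 6. All 6 GDF15 values of Plin2 (12252 to 17830) lie below the 12 others, and the GDF15 values of Pnpla2 separate by replicate number.

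The contrast of GDF15 with vehicle holds the whole effect of treatment, lower food intake included. Of the 10 genes, 5 were lower with GDF15 (Plin2, Plin3, Abhd5, Fitm2 and Hilpda) and none was higher. Of all 14667 genes tested, 17.5% were called lower and 15.8% higher, and the median log2 fold change was 0.0024 over all genes and −0.34 over the 10 members. None of the 10 exceeded a log2 change of 1, the additional threshold used in the study, which 6.27% of genes passed.

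Plin2, the main coat protein of hepatocyte droplets (chr4:86648386-86670060), ranged from 22356 to 29779 in vehicle livers with a median of 25631. It ranged from 12252 to 17830 with GDF15 (median 14540) and from 20012 to 30938 with pair-feeding (median 23901). All 6 GDF15 livers lay below all 12 others. Plin2 fell by 42.0% against vehicle (log2 fold change of −0.79 with an SE of 0.11, DESeq2 adjusted p = 1.25e-10) and fell by 39.0% against pair-fed mice (−0.71 ± 0.11, adjusted p = 1.05e-08). Groups separated in this way for 6.94% of all genes against vehicle and for 5.23% against pair-fed mice. The fall was present in replicates 1 to 3 (−0.64 ± 0.14, adjusted p = 9.16e-05) and in replicates 4 to 6 (−0.93 ± 0.15, adjusted p = 6.43e-08) against vehicle, and in both sets against pair-fed mice (−0.53 and −0.90).

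Plin3 (TIP47, chr17:56277476-56292873), a perilipin that also occurs free in the cytosol and binds to small, nascent droplets, ranged from 2217 to 2851 with vehicle (median 2469), from 1609 to 2209 with GDF15 (median 1835) and from 1940 to 2448 with pair-feeding (median 2362). The GDF15 values were all below the vehicle values and overlapped those of the pair-fed mice, of which 4 of 6 GDF15 livers lay below the lowest. Plin3 fell by 24.4% against vehicle (log2 fold change −0.40 ± 0.09, DESeq2 adjusted p = 4.01e-05) and fell by 16.7% against pair-fed mice (−0.26 ± 0.09, adjusted p = 0.0131). The log2 changes were −0.44 (adjusted p = 0.000190) and −0.35 (adjusted p = 0.00380) in replicates 1 to 3 and −0.36 (adjusted p = 0.0563) and −0.16 (adjusted p = 0.492) in replicates 4 to 6, and the difference between the sets did not pass in either comparison (adjusted p = 0.892 and 0.563). With the 3 larger pair-fed libraries the log2 change was −0.17 (adjusted p = 0.301).

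Plin5 (chr17:56111601-56117596), the perilipin of oxidative tissues, which tethers droplets to mitochondria and binds Abhd5 and Pnpla2, did not share the fall. Its values were 967 to 1351 with vehicle (median 1165), 1037 to 1842 with GDF15 (median 1246) and 786 to 1294 with pair-feeding (median 1157), and the groups overlapped. GDF15 replicates 1 and 2 (1842 and 1837) stood above the 16 other livers. The log2 difference was 0.27 (95% interval −0.04 to 0.58, DESeq2 adjusted p = 0.179) against vehicle and 0.36 (0.06 to 0.67, adjusted p = 0.0682) against pair-fed mice. The second passed without GDF15 replicate 3 or 6 or pair-fed replicate 1 (adjusted p = 0.0262 to 0.0410). Against pair-fed mice Plin5 differed by 0.59 (adjusted p = 0.0323) in replicates 1 to 3 and by 0.11 (adjusted p = 0.709) in replicates 4 to 6, and the difference between the sets did not pass (adjusted p = 0.313).

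Cideb (chr14:55754050-55758458), which takes part in droplet fusion and in the lipidation of VLDL particles, was the steadiest of the coat genes. It lay between 5948 and 7179 in all 18 livers, and its CV within a group was at most 7.07%. In CPM, which uses library totals in place of size factors, Cideb was at 306 to 342 with vehicle and 277 to 324 with GDF15. Pair-fed livers were at 314 to 343 CPM, and small differences of Cideb thus depended on the scaling. Cideb differed by 0.05 on the log2 scale from vehicle (95% interval −0.05 to 0.16, DESeq2 adjusted p = 0.476) and by 0.04 from pair-fed mice (−0.06 to 0.15, adjusted p = 0.583). Part of Cideb, 1451 bases, overlaps Nop9 on the opposite strand, whose mean was 411 normalized counts.

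**Figure D2:**
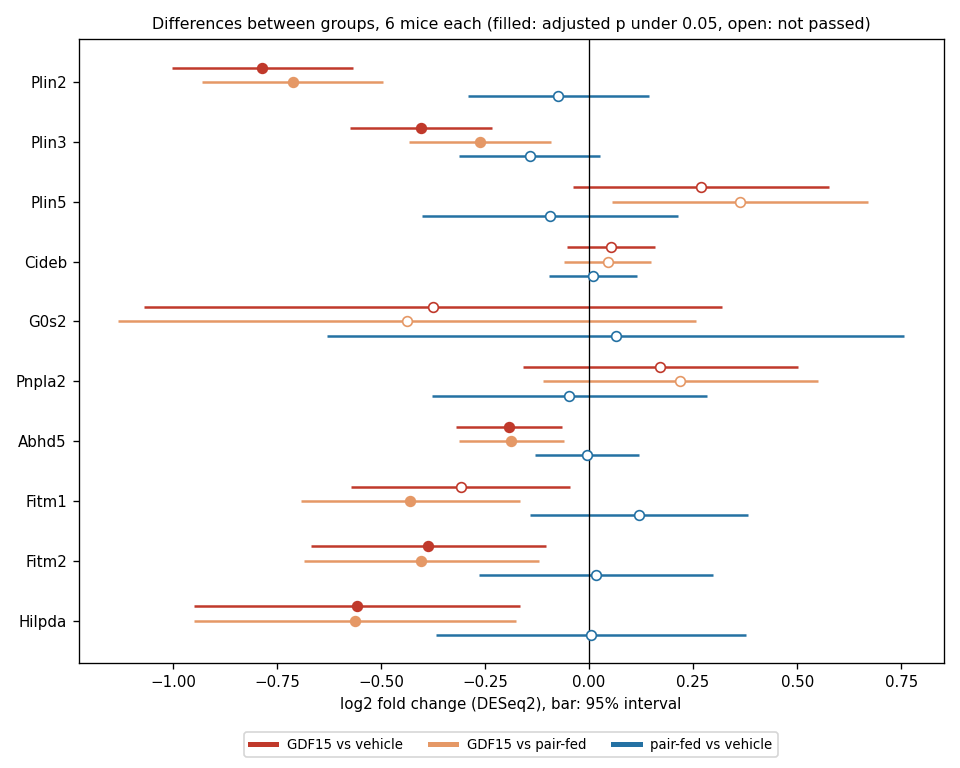
DESeq2 log2 fold changes of the 10 genes with 95% intervals in the 3 comparisons, with filled points for adjusted p under 0.05 and open points for the rest. Plin2 is farthest below 0 in both GDF15 comparisons (−0.79 and −0.71), and none of the pair-fed against vehicle points is filled.

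The lipase Pnpla2 (chr7:141455198-141460743) itself was not called in either comparison. Its values were 1624 to 2164 with vehicle (median 1820), 1396 to 2776 with GDF15 (median 2007) and 1289 to 2508 with pair-feeding (median 1764). The GDF15 livers fell into 2 sets, with 2198, 2776 and 2674 in replicates 1 to 3, all above the 6 vehicle livers, and 1771, 1396 and 1815 in replicates 4 to 6. Over 6 mice a group, Pnpla2 differed by 0.17 on the log2 scale from vehicle (95% interval −0.16 to 0.50, DESeq2 adjusted p = 0.463) and by 0.22 from pair-fed mice (−0.11 to 0.55, adjusted p = 0.352).

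Abhd5 (chr9:122351608-122381524), the activator of Pnpla2, showed a small decrease with little spread. It ranged from 750 to 863 with vehicle (median 815), from 632 to 813 with GDF15 (median 702) and from 753 to 840 with pair-feeding (median 811). GDF15 replicate 4, at 813, was the only one of its group above the lowest vehicle or the lowest pair-fed liver. Abhd5 fell by 12.4% against vehicle (log2 fold change −0.19 ± 0.06, DESeq2 adjusted p = 0.0126) and fell by 12.1% against pair-fed mice (−0.19 ± 0.06, adjusted p = 0.0179). The second call was lost without GDF15 replicate 1 (adjusted p = 0.0582) or 3 (adjusted p = 0.0571) and with the 3 larger pair-fed libraries (−0.16, adjusted p = 0.206). Abhd5 was at −0.28 in replicates 1 to 3 in both comparisons (adjusted p = 0.0292 and 0.0252) and at −0.10 (adjusted p = 0.565) and −0.083 (adjusted p = 0.657) in replicates 4 to 6. The difference between the sets did not pass (adjusted p = 0.555 and 0.365).

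G0s2 (chr1:193272161-193273217), the inhibitor of Pnpla2 that responds to feeding and insulin, had the widest spread of the 10 genes. It ranged from 1742 to 3293 with vehicle (median 2778), from 852 to 3140 with GDF15 (median 2056) and from 1297 to 5416 with pair-feeding (median 2404), with a CV of 55.8% in the pair-fed group. The groups overlapped, and the log2 difference was −0.37 (95% interval −1.07 to 0.32, DESeq2 adjusted p = 0.442) against vehicle and −0.44 (−1.13 to 0.26, adjusted p = 0.379) against pair-fed mice. Changes of either sign within these intervals cannot be told from 0 at this spread. The gene lies within Lamb3 on the opposite strand, which had a mean of 158 normalized counts.

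Hilpda (chr6:29272488-29275446), the hypoxia-inducible inhibitor of Pnpla2, was the least abundant of the 10 genes, with 27 to 113 counts per library before scaling. It ranged from 58.2 to 97.9 with vehicle (median 67.1), from 34.7 to 63.7 with GDF15 (median 47.5) and from 42.9 to 90.5 with pair-feeding (median 79.7). In the GDF15 group 5 of 6 livers lay below the lowest vehicle liver, and 1 of 6 lay below the lowest pair-fed liver. All 6 lay below the median of either other group. Hilpda fell by 32.0% against vehicle (log2 fold change −0.56 ± 0.20, DESeq2 adjusted p = 0.0195) and fell by 32.8% against pair-fed mice (−0.56 ± 0.20, adjusted p = 0.0207). The call against vehicle was lost without vehicle replicate 1 or 2 or GDF15 replicate 4 (DESeq2 adjusted p = 0.0543 to 0.0803), and that against pair-fed mice without GDF15 replicate 4 or pair-fed replicate 1, 2 or 5 (adjusted p = 0.0512 to 0.0631) or with the 3 larger pair-fed libraries (−0.34, adjusted p = 0.365). Hilpda was at −0.72 (adjusted p = 0.0274) and −0.79 (adjusted p = 0.0131) in replicates 1 to 3 and at −0.38 (adjusted p = 0.453) and −0.31 (adjusted p = 0.552) in replicates 4 to 6. The difference between the sets did not pass (adjusted p = 0.754 and 0.493).

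Fitm1 and Fitm2 encode the FIT proteins, which act at the endoplasmic reticulum when droplets form. Fitm1 (chr14:55575617-55576954), best known from skeletal muscle, was at 919 to 1274 with vehicle (median 1120), 598 to 1093 with GDF15 (median 956) and 963 to 1443 with pair-feeding (median 1251). GDF15 replicates 4 and 5 (598 and 750) were the lowest of all livers, and the groups overlapped. Fitm1 fell by 25.8% against pair-fed mice (log2 fold change −0.43 ± 0.13, DESeq2 adjusted p = 0.00809), whereas the difference of −0.31 from vehicle missed the threshold (95% interval −0.57 to −0.05, adjusted p = 0.0613) and passed it without vehicle replicate 5 or GDF15 replicate 1 or 6 (adjusted p = 0.0268 to 0.0396). Against pair-fed mice Fitm1 was at −0.15 (adjusted p = 0.460) in replicates 1 to 3, at −0.71 (adjusted p = 0.00374) in replicates 4 to 6 and at −0.31 (adjusted p = 0.173) with the 3 smaller pair-fed libraries, and the difference between the sets did not pass (adjusted p = 0.145). Muscle markers were at or near 0 in these libraries, with a summed level under 1 CPM.

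Fitm2 (chr2:163466379-163472629), the more widely expressed FIT protein gene, was at 1399 to 1820 with vehicle (median 1545), 979 to 1500 with GDF15 (median 1123) and 1186 to 2152 with pair-feeding (median 1528). It fell by 23.5% against vehicle (log2 fold change −0.39 ± 0.14, DESeq2 adjusted p = 0.0262) and fell by 24.4% against pair-fed mice (−0.40 ± 0.14, adjusted p = 0.0229). GDF15 replicates 4 to 6 (979 to 1060) lay below all other livers, whereas replicates 1 to 3 (1186 to 1500) overlapped both other groups. In replicates 1 to 3 alone Fitm2 was not called, with log2 differences of −0.07 (adjusted p = 0.707) from vehicle and 0.12 (adjusted p = 0.465) from pair-fed mice. Leaving out GDF15 replicate 4, 5 or 6, vehicle replicate 4 or 5, or pair-fed replicate 4 or 5 also ended the call in the comparison that used it (adjusted p = 0.0548 to 0.0831), as did the 3 smaller pair-fed libraries (−0.091, adjusted p = 0.680).

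The comparison of GDF15 with pair-fed mice asks which differences remain when food intake is matched. It uses the same 6 GDF15 livers as the comparison with vehicle, so both sets of values are given side by side above. Of the 10 genes, 6 were lower than in pair-fed mice (Plin2, Plin3, Abhd5, Fitm1, Fitm2 and Hilpda) and none was higher, beside 13.8% of all 14353 genes tested called lower and 13.3% called higher. The median log2 fold change was −0.33 over the members and −0.00077 over all genes, and none of the 10 exceeded a log2 change of 1, beside 3.37% of all genes. With only the 3 larger pair-fed libraries as the comparison group 3 members were called.

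Pair-fed and vehicle-treated mice were compared to ask what matched food intake alone did. None of the 10 genes was called by DESeq2, and none had an unadjusted p under 0.05, beside 0% of all 16242 genes called and 718 with an unadjusted p under 0.05. With edgeR in place of DESeq2 the count was also 0, with 620 genes at an unadjusted p under 0.05. The median log2 fold change of the members was −0.00055. For Plin2 the log2 difference was −0.07 (95% interval −0.29 to 0.14), and for Plin3, the member with the lowest p, −0.14 (−0.31 to 0.03). The interval was widest for G0s2 (−0.63 to 0.76), so sizeable changes with pair-feeding were not detectable for this gene. For Hilpda it ran from −0.37 to 0.38, and changes within it cannot be told from 0.

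Ratios of 2 genes within a library do not depend on how the library was scaled. The log2 ratio of Plin5 to Plin2, one coat protein to another, was −3.45 ± 0.39 in GDF15 livers, −4.48 ± 0.27 in vehicle livers and −4.51 ± 0.21 in pair-fed livers. All 6 GDF15 livers (−3.89 to −2.90) lay above all vehicle livers (−4.79 to −4.14) and all pair-fed livers (−4.69 to −4.18). The ratio was thus 2.04-fold higher than with vehicle and 2.08-fold higher than with pair-feeding (exact two-sided permutation p = 0.00216 for each, the smallest the 924 splits allow, adjusted p = 0.0130 over the 12 ratio tests). In replicates 1 to 3 the GDF15 mean was −3.36, and in replicates 4 to 6 it was −3.55. The ratio is not independent of the fall of Plin2 (log2 fold changes −0.79 and −0.71), which separated the GDF15 livers by itself. The differences of Plin5 (0.27 and 0.36) were not called.

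Ratios of the partners of Pnpla2 to Pnpla2 did not pass the adjustment. The log2 ratio of the inhibitor G0s2 to Pnpla2 was −0.14 ± 0.59 in GDF15 livers, 0.44 ± 0.34 in vehicle livers and 0.45 ± 0.44 in pair-fed livers (exact permutation p = 0.0584 and 0.0736, adjusted p = 0.147 for both). The ratio of Hilpda to Pnpla2 was −5.38 ± 0.57, −4.70 ± 0.33 and −4.63 ± 0.70 in the same order, with 5 of 6 GDF15 livers below all vehicle livers (exact permutation p = 0.0368 and 0.0714, adjusted p = 0.147 for both). The ratio of the activator Abhd5 to Pnpla2 was −1.54 ± 0.44, −1.20 ± 0.23 and −1.13 ± 0.37 (exact permutation p = 0.132 and 0.128, adjusted p = 0.198 for both). For Abhd5 the GDF15 libraries separated by replicate number, with −2.08 to −1.75 in replicates 1 to 3 and −1.28 to −1.06 in replicates 4 to 6. Without GDF15 replicate 5, whose G0s2 and Hilpda ratios were the highest of its group, the G0s2 ratio differed by −0.75 from vehicle and by −0.76 from pair-fed mice (exact permutation test, adjusted p = 0.0364 for both), and that of Hilpda by −0.88 from vehicle (adjusted p = 0.00866). Between pair-fed and vehicle livers none of the 4 ratios differed (exact permutation p from 0.725 to 0.976).

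**Figure D3:**
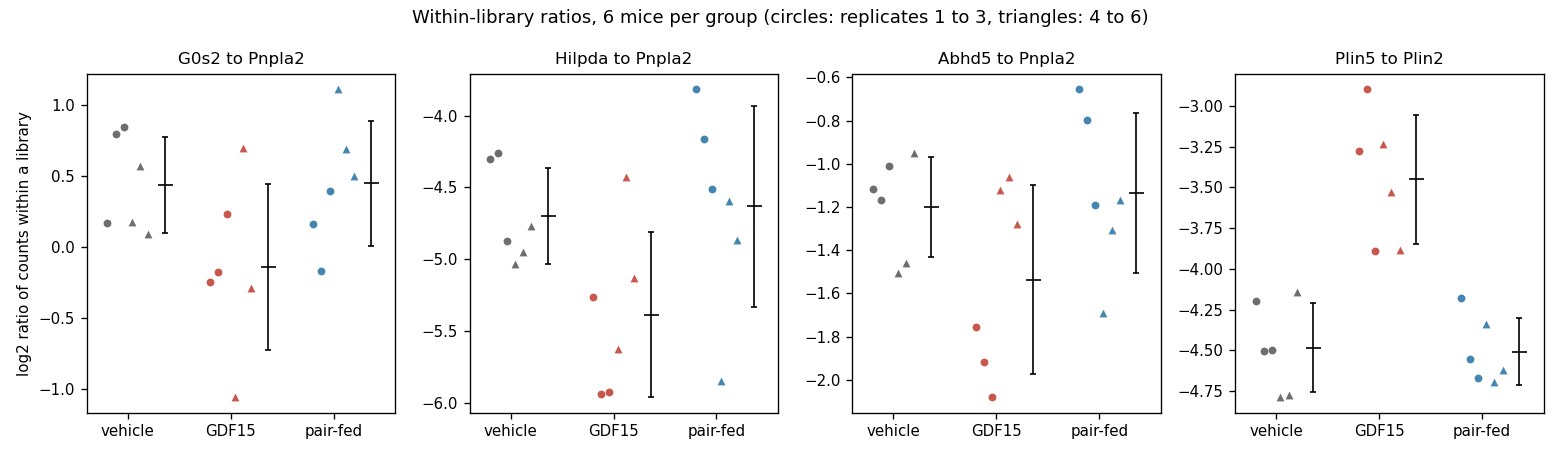
Log2 ratios of 2 genes within each library for 6 mice per group, with mean and SD in black, circles for replicates 1 to 3 and triangles for replicates 4 to 6. Only for Plin5 to Plin2 are the 6 GDF15 livers (−3.89 to −2.90) clear of both other groups. The axes are logarithmic and do not start at 0.

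Replicates 1 to 3 and 4 to 6 were then compared, since their library totals differed. A DESeq2 model with group, set and their interaction was fitted to all 18 livers, a test chosen after the data were seen. Against vehicle, 2 of the 10 genes responded differently in the 2 sets, beside 1.66% of all 10889 genes tested, and against pair-fed mice 3 of 10 did, beside 8.81% of 11518 genes. Between pair-fed and vehicle livers none of the 10 did, beside 0% of 16242 genes, although the unadjusted p was 0.0165 for Fitm2 and 0.0305 for G0s2.

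For Pnpla2 the log2 difference between GDF15 and vehicle was 0.54 (DESeq2 adjusted p = 0.00183) in replicates 1 to 3 and −0.26 (adjusted p = 0.319) in replicates 4 to 6, and the sets differed by −0.80 ± 0.24 (adjusted p = 0.0480). Against pair-fed mice the values were 0.74 (adjusted p = 9.62e-06) and −0.33 (adjusted p = 0.195), which differed by −1.07 ± 0.24 (adjusted p = 0.000639). Pair-fed livers differed between the sets in the other direction, with 1289 to 1837 normalized counts in replicates 1 to 3 and 1691 to 2508 in replicates 4 to 6. The overall values for Pnpla2, near 0 with wide intervals, thus join a set that was called higher and a set that was not called.

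Fitm2 differed from vehicle by −0.73 (DESeq2 adjusted p = 1.22e-08) and from pair-fed mice by −0.90 (adjusted p = 5.35e-13) in replicates 4 to 6, and the differences between the sets were −0.66 ± 0.15 (adjusted p = 0.00670) and −1.02 ± 0.15 (adjusted p = 7.37e-08). In pair-fed livers Fitm2 was at 1186 to 1370 in replicates 1 to 3 and at 1686 to 2152 in replicates 4 to 6, with no overlap. G0s2 differed from pair-fed mice by 0.53 (adjusted p = 0.288) in replicates 1 to 3 and by −1.27 (adjusted p = 0.0407) in replicates 4 to 6, and the sets differed by −1.81 ± 0.59 (adjusted p = 0.0317). In both groups whose sets differed in library total, the set with the larger libraries had the higher mean of Pnpla2, Fitm2 and G0s2. The part of library total in these differences was not tested.

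**Figure D4:**
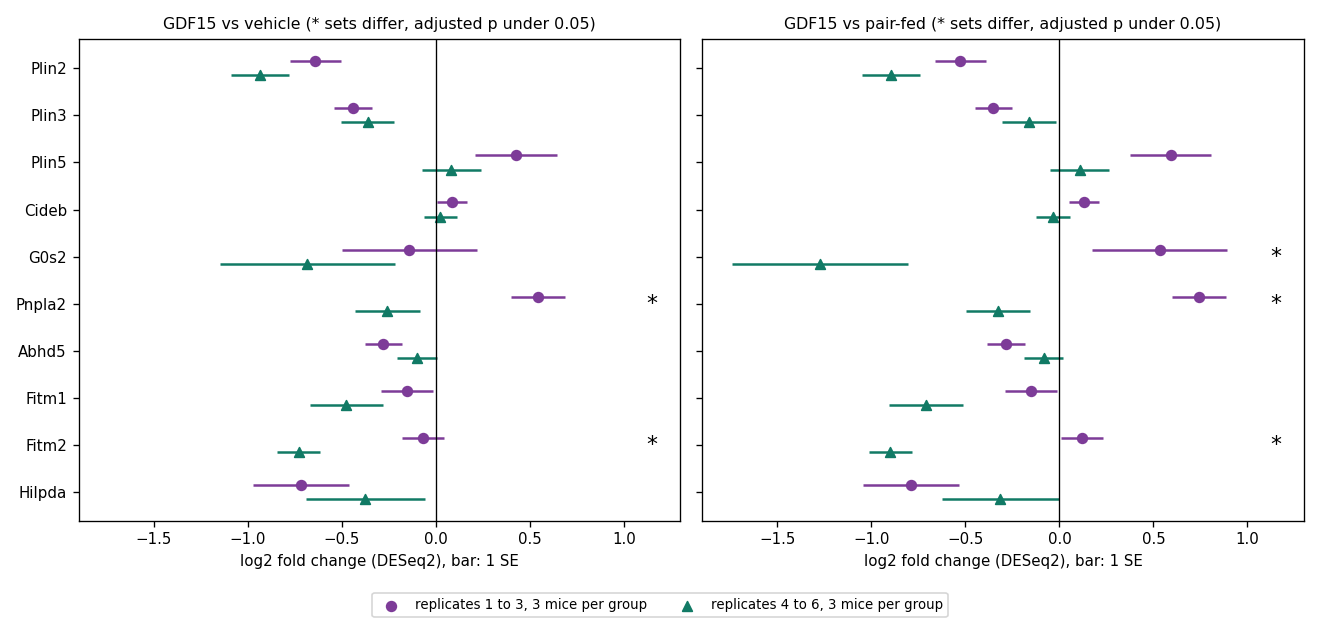
DESeq2 log2 fold changes of the 10 genes within replicates 1 to 3 (circles) and within replicates 4 to 6 (triangles), 3 mice per group each, against vehicle (left) and pair-fed mice (right), with bars of 1 SE. Asterisks mark Pnpla2 and Fitm2 in both panels and G0s2 on the right, the genes whose sets differed, while Plin2 was lower in both sets of both panels.

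Members were also compared for how they varied between mice of the same group. Of the 45 pairs, 3 passed on Pearson's r of the deviations from group means over 18 livers, and all 3 were positive. The closest pair was Pnpla2 and Fitm2 (r = 0.880, permutation p = 4.00e-05, adjusted p = 0.00180, Spearman rho = 0.870, permutation p = 0.000120), and r was 0.900 without the 2 livers farthest from the median of Pnpla2. G0s2 and Fitm2 followed (r = 0.819, permutation p = 0.000350, adjusted p = 0.00787, rho = 0.806, permutation p = 0.000760), with r of 0.751 without the 2 farthest livers. Cideb and Fitm1, both on chromosome 14, also varied together (r = 0.678, permutation p = 0.00315, adjusted p = 0.0473, rho = 0.787, permutation p = 0.000140), with r of 0.668 without the 2 farthest livers. G0s2 and Pnpla2 passed on rho alone (0.779, permutation p = 0.00127, adjusted p = 0.0143, r = 0.707, permutation p = 0.00477, adjusted p = 0.0537), with r of 0.646 without the 2 farthest livers.

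With the mean of each replicate set within a group removed, only G0s2 and Fitm2 still passed (r = 0.801, permutation test, adjusted p = 0.00720). For Pnpla2 and Fitm2 r was then 0.737 (adjusted p = 0.163), for Cideb and Fitm1 0.592 (adjusted p = 0.472) and for G0s2 and Pnpla2 0.513 (adjusted p = 0.472). Plin2 did not pass with any other member, and its r with Plin3 was 0.32 and with Plin5 0.28.

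**Figure D5:**
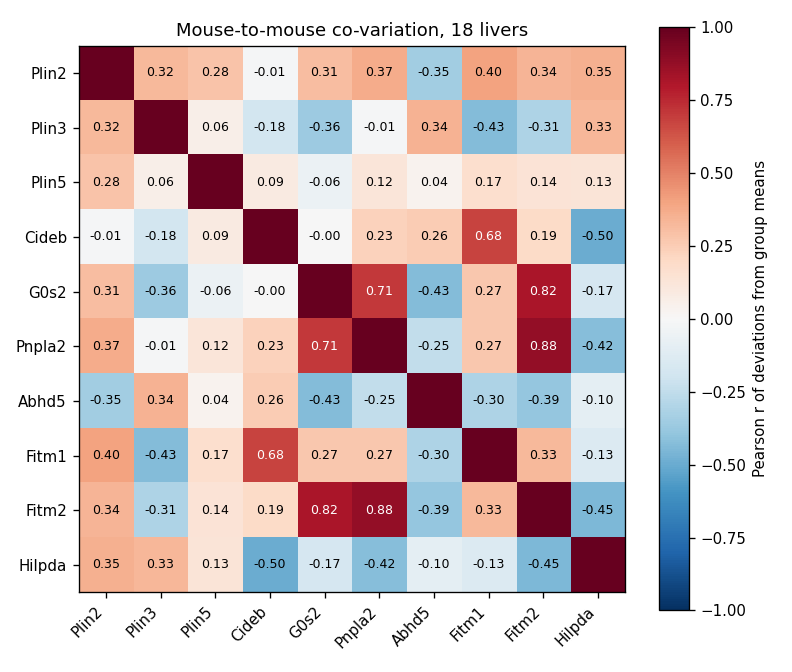
Pearson's r between the 10 genes over 18 livers, computed on log2 values after the mean of each group was removed, from −1 (blue) to 1 (red). The darkest off-diagonal cells are Pnpla2 with Fitm2 (0.88), G0s2 with Fitm2 (0.82) and G0s2 with Pnpla2 (0.71).

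Other genes of the droplet and of triglyceride turnover were counted in the same DESeq2 fit. Over all genes tested, 17.5% were called lower and 15.8% higher than with vehicle. Against pair-fed mice these shares were 13.8% and 13.3%, and the counts of each list below stand beside them. Of 24 other droplet proteins tested, 5 were lower and 6 higher with GDF15 than with vehicle, and 6 were lower and 3 higher than in pair-fed mice. Cidec and Cidea, relatives of Cideb that promote large droplets, were the lower ones with the largest changes (log2 fold changes −3.40 ± 0.50 and −3.28 ± 0.40 against vehicle, DESeq2 adjusted p = 8.36e-10 and 8.28e-14). Cidec was at 2262 normalized counts with vehicle and 214 with GDF15, and Cideb at 6470 and 6711. Plin4, a further perilipin and named here after its values were seen, was also lower than with vehicle (−1.48 ± 0.34, adjusted p = 0.000159, with means of 859 and 2391 normalized counts) and than in pair-fed mice (−0.88 ± 0.34, adjusted p = 0.0392). Of those higher than with vehicle, Nsdhl, an enzyme of cholesterol synthesis, and Acsl1, a long-chain acyl-CoA synthetase, changed most (0.57 ± 0.17 and 0.37 ± 0.15, adjusted p = 0.00461 and 0.0438). Neither was called against pair-fed mice (0.23 and 0.086, adjusted p = 0.344 and 0.719).

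Of 13 other lipases, 2 were lower and 3 higher than with vehicle, and 3 were lower and 2 higher than in pair-fed mice. The lysosomal lipase Lipa (−0.39, DESeq2 adjusted p = 1.11e-06) and Ddhd2 (−0.25, adjusted p = 0.00895) fell against vehicle, and the hepatic lipase Lipc (0.72, adjusted p = 2.97e-14) and Aadac (0.36, adjusted p = 0.000364) rose. Of 15 genes of triglyceride synthesis, 5 were lower and 2 higher than with vehicle, and 4 were lower and 2 higher than in pair-fed mice. Mogat1 (−1.39, adjusted p = 2.68e-13) and Gpat3 (−0.87, adjusted p = 0.00284) fell, while Lpin1 (1.32, adjusted p = 0.00641) and Dgat2, which adds the last acyl chain to triglyceride (0.54, adjusted p = 6.86e-05), rose against vehicle. Lpin1 varied widely, at 7537 ± 5335 normalized counts with GDF15 and 3011 ± 1686 with vehicle, and these groups overlapped. Gpat3 was not called against pair-fed mice (−0.60, adjusted p = 0.0584).

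Of PPARα and 20 of its targets, 6 were lower and 2 higher than with vehicle and 5 were lower than in pair-fed mice. Pdk4, a brake on glucose oxidation (−1.41, DESeq2 adjusted p = 0.00830), and Acot2 (−1.21, adjusted p = 3.78e-05) fell, and Cyp4a14 (0.71, adjusted p = 0.00872) and Acsl1 rose against vehicle. Neither Cyp4a14 (0.53, adjusted p = 0.0699) nor Acsl1 was called against pair-fed mice. Of 15 genes of the hypoxia response, including the transcription factor genes Hif1a and Epas1, 1 was lower and 2 were higher than with vehicle. Against pair-fed mice 3 were lower and 3 higher. Egln1 fell (−0.21, adjusted p = 0.000185), and Vegfa (0.55, adjusted p = 8.94e-09) and Epas1 (0.46, adjusted p = 6.68e-05) rose against vehicle, and the other 12 were not called. In all 5 lists none was called between pair-fed and vehicle livers.

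Markers of other liver cells moved with the treatment. Macrophage markers, from cells that also store droplets coated by Plin2, were lower than with vehicle for 8 of 11 genes and lower than in pair-fed mice for 6. Their summed level was 214 to 496 CPM with vehicle, 129 to 272 with GDF15 and 219 to 381 with pair-feeding. The 3 not called against vehicle, Clec4f, Timd4 and Marco, had positive log2 fold changes (0.15, 1.03 and 0.73, DESeq2 adjusted p = 0.550, 0.0646 and 0.513). Stellate cell markers, from cells that store retinoids in droplets, were lower for 7 of 7 genes and for 6 of 7 (344 to 610, 166 to 268 and 324 to 499 CPM). Cholangiocyte markers were lower for 5 of 5 genes against vehicle and for 0 of 5 against pair-fed mice (11.7 to 40.1, 7.22 to 12.5 and 9.66 to 27.9 CPM), and of 6 endothelial markers 1 was lower and 1 higher against vehicle, and 1 was lower against pair-fed mice (137 to 198, 88.7 to 173 and 147 to 200 CPM). Hepatocyte markers were higher for 7 of 9 genes in both comparisons, with summed levels of 80079 to 91100 CPM with vehicle, 99068 to 110042 with GDF15 and 72393 to 101160 with pair-feeding. In whole liver, fewer cells of a type and less RNA per cell cannot be told apart, and the part of these shifts in the lower Plin2, Plin3, Abhd5, Fitm2 and Hilpda was not tested.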

How the data were processed

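Estimated counts per gene symbol were deposited by the authors as 1 table of whole numbers. Per the labels and the study's methods, libraries were made with a directional kit, reads were trimmed with Trim Galore and quantified with Salmon, and mm10 is named as the build in the submitters' processing notes. Tool versions and Salmon's strand setting are not given in the sources used here, so reads of genes on opposite strands may not be fully separated. All 18 columns were used, and the lowest row total was 5.

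DESeq2, the tool named in the study's methods, was applied here (version 1.42.0 in R 4.3.3) to the counts of all 16245 genes with group as the only factor, median-of-ratios size factors, independent filtering and Benjamini-Hochberg adjustment over all genes tested. As an alternative, edgeR (version 4.0.16) was run with its quasi-likelihood test. Fold changes were not shrunken. Intervals are Wald intervals at 95%. Ratios were compared with exact two-sided permutation tests, and correlations of log2(normalized count + 1) with 100000 permutations within groups. Replicates are separate mice, named by sample title. Library totals were 16508864 to 35301853, and a floor of 3 counts covers counting error only. Coordinates and transcript lengths are from GENCODE M21 on GRCm38. The procedure was tested on simulated data.

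The genes and lists were chosen with earlier results of these data known. All 10 members are named, and from each pathway list the 2 largest falls and the 2 largest rises against vehicle among genes called with a mean of at least 50 normalized counts. The lists give some genes under 2 symbols, and Ldaf1, Spart and Ero1l were measured as Tmem159, Spg20 and Ero1a. Lep, Myh2 and Myh4 were not analysed here.

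Whether the replicate numbers pair mice across groups was checked on deviations from group means over 10883 genes. Same-numbered mice had a mean r of −0.0709 (GDF15 and vehicle), 0.0283 (GDF15 and pair-fed) and 0.221 (pair-fed and vehicle), and 2, 3 and 4 of 6 pairs exceeded 0.1. For pair-fed and vehicle the same-numbered r ran from 0.0508 to 0.638, beside a mean of −0.0443 for other numbers. Mice of these 2 groups thus shared some structure by number, although only 1 of 6 pair-fed mice correlated best with the vehicle mouse of its number. The main tests did not take the numbers to pair mice, and results with the replicate number as a block are given below. Alternatives were TMM library sizes, edgeR, a filter of 10 counts in 6 samples, no independent filtering, fits of the 12 compared samples, a fold threshold, a replicate block, each replicate set, a set term, the 3 smaller or larger pair-fed libraries, a pseudocount of 0.5 and leaving out each mouse.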

Additional observations from a re-analysis of the deposited data

Results flagged for a closer look

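Cideb in GDF15 replicate 5 was 5948 normalized counts, apart from the 5 other mice of its group at 6745 to 7011. It was the only 1 of 42 groups of 6 values in which an end value stood apart by Dixon's criterion, beside 2.1 groups that chance gives.

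The response to GDF15 differed between replicates 4 to 6 and replicates 1 to 3 (DESeq2 interaction) for Pnpla2 against vehicle, by −0.80 on the log2 scale (adjusted p = 0.0480), and against pair-fed mice, by −1.07 (adjusted p = 0.000639). Pnpla2 was higher with GDF15 in each of replicates 1 to 3 than in any vehicle mouse and was not called in replicates 4 to 6. For Fitm2 the difference between the sets was −0.66 against vehicle (adjusted p = 0.00670) and −1.02 against pair-fed mice (adjusted p = 7.37e-08), and its lower level with GDF15 was seen in replicates 4 to 6. For G0s2 it was −1.81 against pair-fed mice (adjusted p = 0.0317).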

How the results depend on the processing

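Plin2 and Plin3 were called lower than with vehicle and than in pair-fed mice in each of the 18 fits that left out 1 mouse. Members called numbered 3 to 6 against vehicle in these fits (3 without GDF15 replicate 4), 4 to 6 against pair-fed mice and 0 between pair-fed and vehicle. Against vehicle, 2 members were called in replicates 4 to 6 only, against pair-fed mice 3 with the 3 larger pair-fed libraries, and 0 in either comparison with a log2 threshold of 1, where genes of the pathway lists called numbered 8 and 7. Fitm2 lost its call in 5 of 18 fits in either GDF15 comparison, Hilpda in 3 and 4, and Abhd5 in 2 against pair-fed mice, while Fitm1 gained one in 3 against vehicle and Plin5 in 3 against pair-fed mice. TMM scaling, edgeR and both filters changed no call of a member. Correlated pairs numbered 1 with replicate set means removed and 1 to 4 with 1 mouse left out (1 without pair-fed replicate 4). Hilpda had the lowest counts of the 10 genes and G0s2 the widest spread. The cause of these changes was not tested.

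With the replicate number as a block the ratio of Plin5 to Plin2 differed by 1.03 from vehicle and 1.06 from pair-fed mice, with adjusted p = 0.188 in an exact sign-flip test whose smallest p before adjustment is 0.0312. Plin5 passed against pair-fed mice under the replicate block (log2 0.35, DESeq2 adjusted p = 0.0149), and the block changed no other call of a member.

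Signs turned as follows on the log2 scale, for values that were not called unless named above. In replicates 4 to 6, Pnpla2 was at −0.26 against vehicle and −0.33 against pair-fed mice, and Cideb at −0.034 against pair-fed mice. In replicates 1 to 3, G0s2 was at 0.53 and Fitm2 at 0.12 against pair-fed mice, and with the 3 smaller pair-fed libraries G0s2 was at 0.22. Between pair-fed and vehicle, replicates 1 to 3 gave Cideb −0.045, G0s2 −0.67, Abhd5 0.0053, Fitm1 −0.0043 and Fitm2 −0.19, and the 3 smaller libraries gave −0.037, −0.60, 0.024, −0.00345 and −0.29. Replicates 4 to 6 gave Pnpla2 0.068 and Hilpda −0.061, the 3 larger libraries 0.16 and −0.22, and the replicate block gave Hilpda −0.012. With 1 mouse left out, pair-fed against vehicle values ranged over −0.015 to 0.041 for Cideb, −0.25 to 0.21 for G0s2, −0.16 to 0.031 for Pnpla2, −0.028 to 0.014 for Abhd5, −0.088 to 0.087 for Fitm2 and −0.068 to 0.12 for Hilpda, and the ratios over −0.12 to 0.13 (G0s2 to Pnpla2), −0.097 to 0.31 (Hilpda to Pnpla2), −0.028 to 0.18 (Abhd5 to Pnpla2) and −0.090 to 0.044 (Plin5 to Plin2). The ratio of G0s2 to Pnpla2 differed by −0.75 to −0.40 from vehicle and by −0.76 to −0.41 from pair-fed mice, and that of Hilpda to Pnpla2 by −0.88 to −0.58 from vehicle, with the lowest value of each without GDF15 replicate 5.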

Other observations

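The genes whose mouse-to-mouse pattern was most like that of each lower member were listed among 10882 genes with a mean of at least 50 normalized counts, by Pearson's r of deviations from group means over 18 livers, as a description with no test. Fitm2 had the closest neighbours, Rab43 (r = 0.949), Eci2, an enzyme of unsaturated fatty acid oxidation (0.943), and Ptdss2, a phosphatidylserine synthase (0.936). Rab43 and Ptdss2 were not called against vehicle (log2 fold changes −0.06 and 0.0033), and Eci2 was called higher (0.36, DESeq2 adjusted p = 0.0256), whereas Fitm2 was called lower. For Plin2 the nearest genes were F11r, which encodes a tight junction protein (r = 0.885), Dnttip1 (0.841) and Ifngr2, a subunit of the interferon gamma receptor (0.831), of which Ifngr2 (−0.64, adjusted p = 3.51e-05) and F11r (−0.24, adjusted p = 0.00317) were also lower with GDF15.

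Hilpda varied with Efnb1 (r = 0.889), Plk2 (0.883) and the secreted protease gene Adamts1 (0.878), and Plk2 (log2 fold change −0.86, DESeq2 adjusted p = 9.48e-05) and Adamts1 (−0.72, adjusted p = 8.08e-07) were also lower than with vehicle. Plin3 varied with the cytoskeletal gene Add1 (r = 0.862), Morc4 (0.853) and the translation factor gene Eif6 (0.822), all lower than with vehicle (−0.29 to −0.59). Abhd5 varied with Acsl5, a long-chain acyl-CoA synthetase (r = 0.837), Gpi1, an enzyme of glycolysis (0.813), and Tmx2 (0.799), none of which was called.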
